A study of Mus musculus with 23 samples.

Results

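The effect of moderate anemia on gene expression in the hippocampus of male mouse pups was examined over all expressed genes, in 7 of the 23 libraries of the series. They were selected by their labels, not by any measured value. Of these, 4 came from males with moderate phlebotomy-induced anemia (mPIA) and 3 from male non-bled controls (NBC, numbered 2, 3 and 4). From postnatal day 3 the mPIA pups were bled by 5.25 µl per g of pup weight, in 2 draws each day, until they reached the goal, a haematocrit of 25%. They then lost 3.5 µl per g daily until day 14, when the hippocampus was taken. NBC pups received a needle prick in place of a bleed. Males and females with severe anemia (sPIA, haematocrit goal 18%) and the females of the NBC and mPIA groups served as context (4 libraries each). Strain and litter are not given in the labels, and 1 pup per library was read from the design text. The p-values measure a spread between libraries that is pooled over the groups of all 23.

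Blood draws remove iron together with red cells, so the model combines a lower oxygen supply with iron loss. Cells answer low oxygen through hypoxia-inducible factors (HIF), which raise genes of glucose use, vessel growth and vascular tone. The hippocampus of the young pup forms synapses and myelin at this age and draws heavily on iron for both. In the intact brain the hippocampus borders the lateral ventricle, whose wall carries ciliated ependymal cells and from which the choroid plexus hangs. Bulk RNA of a dissected hippocampus can therefore hold transcripts of those tissues, and in such data fewer cells of a type and less RNA per cell cannot be told apart.

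Below, values of single libraries are given in the order NBC male 2, 3, 4 and mPIA male 1, 2, 3, 4. The 7 libraries held 19.1 to 26.4 mega-counts each. Summed levels, in counts per mega-count of a library (CPM), were at 6970 to 8660 CPM for 23 markers of excitatory hippocampal neurons, so each library held the transcripts its hippocampal label calls for. Other tissue was unevenly present. Ttr, the transthyretin gene and an abundant choroid plexus transcript, measured 1.23, 2464 and 4378 CPM across the NBC males. Across the mPIA males it measured 8.07, 22.6, 29.4 and 1.37 CPM. The 24 choroid plexus markers summed to 232, 3717 and 6929 CPM in the NBC males and to 207 to 274 CPM in mPIA males. The defining markers Folr1, Kcne2, Clic6 and Otx2 lay at 0.146 to 0.388 CPM in NBC male 2 and at 8.99 to 72.5 CPM in NBC males 3 and 4. In mPIA males they lay at no more than 1.32 CPM, with Folr1 and Otx2 at 0 in mPIA male 4 and Kcne2 at 0 in mPIA male 3. The 23 markers of meninges and fibroblasts summed to 540, 1494 and 1260.1 CPM in the NBC males and to 444 to 674 CPM in the mPIA males. The 31 genes of motile cilia and ependyma summed to 140, 165 and 278 CPM in the NBC males and to 113 to 135 CPM in the mPIA males. NBC male 2 thus resembled the mPIA males in choroid plexus and meningeal RNA but lay above all of them in the cilia list. The biological coefficient of variation was 20.7% among NBC males and 11% among mPIA males. In the other groups it ran from 6.83% to 15.2%, so the pooled spread draws on groups tighter than the NBC males.

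**Figure D1:**
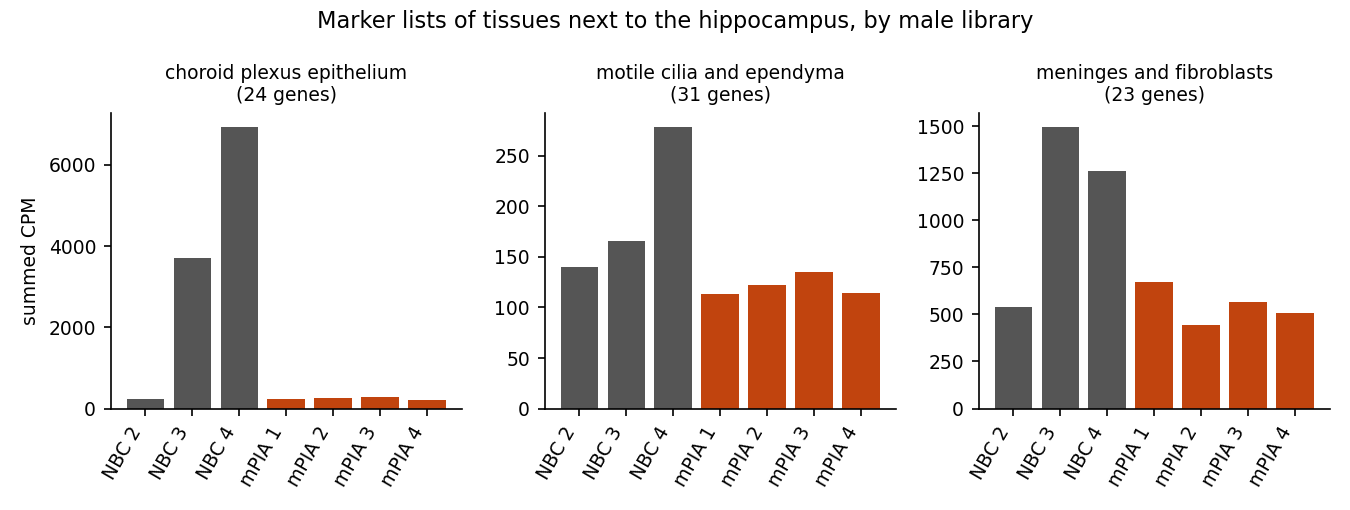
Summed level (CPM, linear axis from 0) of 3 marker lists in each of the 7 male libraries, NBC in grey and mPIA in orange; each bar is 1 library. NBC males 3 and 4 stand above all other libraries in the choroid plexus and meningeal lists, while in the cilia list all 3 NBC males lie above all 4 mPIA males.

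A second feature of the samples concerned the library codes in the labels, whose meaning is not given. Codes of all mPIA males began with M, and codes of all NBC males, sPIA males and sPIA females with P. NBC and mPIA females had codes that began with a number. The numbers at the end of the codes ran on without a gap from the NBC males to the mPIA males, and those of both sPIA groups lay apart. Within males the code letter and the comparison of mPIA with NBC cannot be told apart.

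Moderate anemia in males was accompanied by 24 genes that rose and 77 that fell, together 0.653% of the 15475 genes tested (0.155% higher and 0.498% lower; edgeR quasi-likelihood test, adjusted p below 0.05). Rises were modest, with a median log2 change of 0.53 and 2 genes above 1. Falls were larger, with a median of -1.69 and 53 genes beyond a log2 change of 1, and they were mostly in genes of low level (a median average level of 3.95 CPM against 25.2 CPM for the genes that rose). As a description of the values behind the calls, in all 24 genes that rose every mPIA library lay above every NBC library, a pattern seen in 5.18% of all genes tested. Among the genes that fell, 59 of 77 had every mPIA library below every NBC library, against 4.61% of all genes tested. NBC male 2 was the control nearest to the mPIA males in 21 of the 24 and 70 of the 77 genes.

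The number of calls rested on single libraries and on the shared estimate of spread. Leaving out NBC male 2 gave 1124 calls, leaving out NBC male 3 gave 32 and leaving out NBC male 4 gave 0 (1467 genes at an unadjusted p under 0.05, against 2475 with all libraries). It was 24, 16, 40 and 7 without mPIA males 1, 2, 3 and 4. When the 7 libraries were fitted alone, without the other groups, 0 genes passed (1680 at an unadjusted p under 0.05), while DESeq2 called 381 and limma-voom 24 in all 23 libraries.

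**Figure D2:**
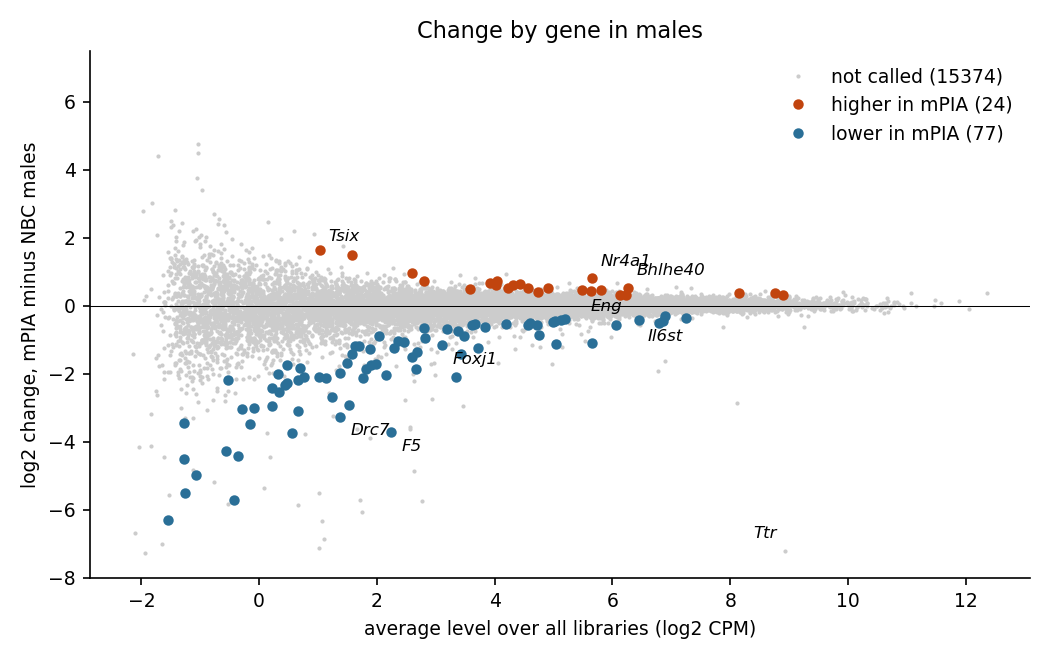
Log2 change of each gene in mPIA males against NBC males (vertical axis) by its average level over all 23 libraries (horizontal axis, log2 CPM); each point is 1 gene, orange for the 24 that rose, blue for the 77 that fell and grey for the genes not called. The largest falls sit at low levels, and Ttr, at a log2 change of -7.20, was not called.

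Among the genes that rose, Bhlhe40 had the smallest adjusted p. It encodes a transcriptional repressor that is induced by low oxygen and takes part in the circadian clock (chromosome 6, 108660629 to 108666925, plus strand, mm10). Its level was 69.1, 68.5 and 67.3 CPM in NBC males 2, 3 and 4 and 94.1, 98.5, 97.8 and 104 CPM in the mPIA males. All mPIA males lay clear of all NBC males, and the 3 NBC males were nearly equal. The part of choroid plexus RNA in this rise was not tested. Group means were 68.3 ± 0.936 CPM (SD, n = 3) and 98.5 ± 3.97 CPM (SD, n = 4). On the log2 scale Bhlhe40 rose by 0.53, with an SE of 0.09 (adjusted p = 0.0111). The change itself lay between 0.49 and 0.54 over 19 alternative fits, of which 14 called it (adjusted p 7.62e-05 to 0.816). With NBC male 2 as the sole control it was 0.51, and with the choroid plexus level as a covariate 0.53, and neither of these fits called it. In sPIA males the mean was 70.1 ± 9.3 CPM (SD, n = 4).

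Nr4a1 encodes an orphan nuclear receptor and is transcribed within minutes of neuronal activity (chromosome 15, 101254269 to 101274795, plus strand). It was at 54.2, 37.8 and 27.3 CPM in the NBC males and at 62.8, 73.9, 70.9 and 71.9 CPM in the mPIA males. The groups did not overlap, but NBC male 2 lay closer to the mPIA males than to NBC male 4. The log2 change was 0.81 (SE 0.15, adjusted p = 0.0168), and it was 0.37 with NBC male 2 as the sole control. It passed in 11 of 19 alternative fits and was 0.58 with the choroid plexus level as a covariate. In sPIA males Nr4a1 was at 33 ± 1.55 CPM (SD, n = 4).

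Activity raises Nr4a1 through the cyclic AMP response element binding protein, so the promoter is shown for that motif. Bhlhe40 and Nr4a1 were the called genes of the hypoxia and immediate early lists, and 1 of these 2 had an entry in the RefSeq promoter table. The sequence below covers 250 bases before to 50 bases after the RefSeq start (chr15:101266596-101266895, plus strand, GRCm38.p6). This start lies inside the gene span given above, not at its first base. Capitals mark the core TGACG of that element, here read on the other strand as CGTCA.

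Nr4a1: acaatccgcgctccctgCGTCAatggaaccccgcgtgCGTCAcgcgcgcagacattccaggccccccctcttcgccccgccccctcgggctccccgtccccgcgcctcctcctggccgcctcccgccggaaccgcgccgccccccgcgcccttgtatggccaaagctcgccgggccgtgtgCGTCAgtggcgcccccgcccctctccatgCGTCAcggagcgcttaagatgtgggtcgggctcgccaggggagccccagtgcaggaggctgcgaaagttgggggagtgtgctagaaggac

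TGACG was searched on both strands and matched 4 times, all on the minus strand, at bases 18 to 22, 38 to 42, 182 to 186 and 211 to 215 of the window. It is present at least once in 20.8% of the 32851 promoters of the table. The hypoxia response core GCGTG matched 2 times (32.4% of promoters have it), and 1 of these matches overlaps the second TGACG match. Neither ACGTG (19.6% of promoters) nor the E-box CACGTG, which contains it (7.15%), occurs in this window. These matches describe letters and not binding.

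Car7 encodes a cytosolic carbonic anhydrase of neurons that interconverts carbon dioxide and bicarbonate (chromosome 8, 104534689 to 104550343, plus strand). Its values were 15.7, 10.3 and 11 CPM in NBC males 2, 3 and 4 and 21.1, 21.4, 20 and 19.6 CPM in the mPIA males. The 4 mPIA males were close together and above all controls. Car7 rose by 0.74 on the log2 scale (SE 0.13, adjusted p = 0.0155), and by 0.38 with NBC male 2 as the sole control, where it did not pass. Eng encodes endoglin, a co-receptor for transforming growth factor beta on endothelial cells (chromosome 2, 32646595 to 32682669, plus strand). It lay at 39.8, 37.64 and 33.1 CPM in the NBC males and at 58.7, 47, 45.6 and 51.8 CPM in the mPIA males. mPIA male 1 was highest, and the groups did not overlap. The log2 change of Eng was 0.46 (SE 0.11, adjusted p = 0.0472), close to the threshold, and it passed in 3 of 19 alternative fits.

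Nphp4, which encodes a protein of the transition zone at the base of cilia, was at 15.8, 14.81 and 14.29 CPM in the NBC males and at 24.9, 19.9, 21.9 and 24.1 CPM in the mPIA males. It rose by 0.60 (SE 0.12, adjusted p = 0.018) and its change was 0.52 with NBC male 2 as the sole control. Lfng, a glycosyltransferase that modifies the Notch receptor, rose by 0.61 (SE 0.15, adjusted p = 0.0494), and Cdc25b, a phosphatase that activates cyclin-dependent kinases, by 0.53 (SE 0.11, adjusted p = 0.0253). Lingo3, Sbno2, Cdkl1, Ap1g2 and Trmt44 rose by 0.49 to 0.74, with adjusted p of 0.0428 to 0.0472. Tsix had the largest log2 change of the genes that rose (1.66, SE 0.37, adjusted p = 0.0342), from a mean of 0.802 to 2.52 CPM. Xist lies across it on the other strand, and the strand setting of the counting is not given. Mean Tsix levels were 1.94 CPM in NBC females and 2.16 CPM in mPIA females. Any part of Xist reads in these counts was not tested.

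**Figure D3:**
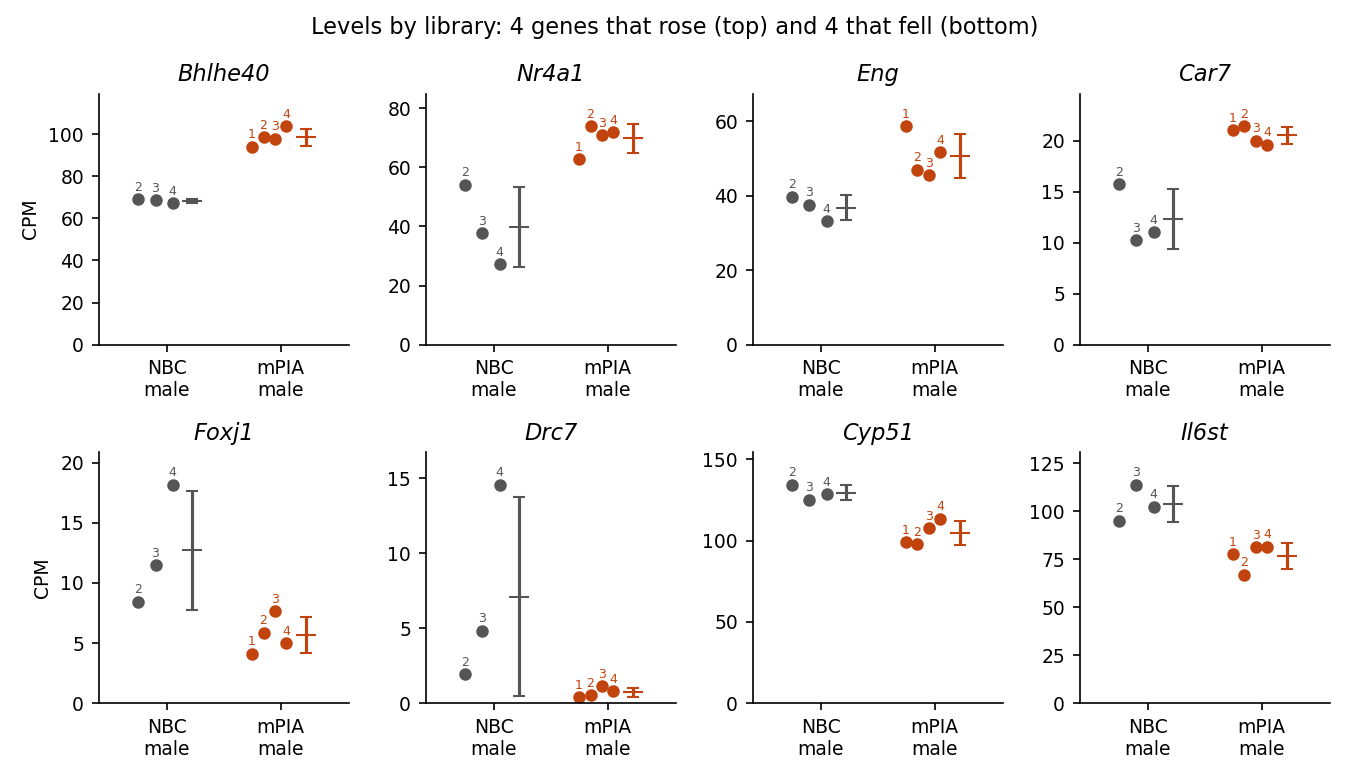
Level (CPM, linear axes from 0) of 8 genes in each male library, NBC in grey and mPIA in orange; points carry the replicate number, and the bar beside them is the mean with the SD (n = 3 and n = 4). All 8 genes show separate groups, and the NBC values of Drc7 and Foxj1 spread widely, highest in NBC male 4, the library with the highest Ttr.

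Of 34 hypoxia and HIF targets tested, 1 rose, Bhlhe40 (0.155% of all genes tested), and 0 fell, 20 had a positive and 14 a negative change, and the median log2 change was 0.08, against 0.01 over all genes tested. The list median was 0.04 without NBC male 3. In 5 of the 34 every mPIA library lay above every NBC library (5.18% of all genes tested). In 1, Car12, every mPIA library lay below every NBC library (4.61% of all genes tested). Adm, which encodes the vasodilator adrenomedullin, was at 2.86, 2.3 and 2.3 CPM in the NBC males and at 3.7, 3.97, 4.22 and 4.07 CPM in the mPIA males. The groups were separate, but the log2 change of 0.68 (SE 0.24) did not pass (adjusted p = 0.15). Vegfa, the main vessel growth factor, was at 110, 85.7 and 98.6 CPM in the NBC males and at 120, 110, 116 and 130 CPM in the mPIA males. Its log2 change was 0.28 (SE 0.1, adjusted p = 0.137), and the lowest mPIA value lay next to the highest NBC value. Pfkfb4, a regulator of glycolysis, and Kdm3a, an oxygen-dependent histone demethylase, were the remaining members with separate groups (log2 changes of 0.54 and 0.25, adjusted p = 0.0931 and 0.143). The glucose transporter Slc2a1 was at 97.3, 69.7 and 64.3 CPM in the NBC males and at 75.3 to 90.9 CPM in the mPIA males, which fell inside the NBC range (log2 change 0.08, adjusted p = 0.798). Its sign turned in 3 alternative fits.

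Iron and haem genes were next considered. Tfrc, the transferrin receptor through which cells take up iron, was at 225, 218 and 361 CPM in the NBC males and at 315, 368, 248 and 418 CPM in the mPIA males. The groups overlapped broadly (log2 change 0.33, SE 0.27, adjusted p = 0.574). None of 23 iron homeostasis genes passed, 8 were higher and 15 lower, and the median was -0.15. That median was -0.07 without NBC male 3, -0.05 with NBC male 2 as the sole control and -0.02 with the choroid plexus covariate. Every mPIA library lay below every NBC library in 4 of the 23, against 4.61% of all genes tested. These included Ncoa4, the receptor that delivers ferritin for breakdown (log2 change -0.39, adjusted p = 0.123), and Slc39a8, a metal transporter (-0.51, adjusted p = 0.0798). Haem synthesis and breakdown (14 tested, 5 higher, median -0.02), nuclear-encoded subunits of oxidative phosphorylation (30 tested, 18 higher, median 0.02), glycolysis (16 tested, 12 higher, median 0.07) and antioxidant and ferroptosis defence (21 tested, 6 higher, median -0.08) had 0 members that passed. The haemoglobin genes were listed at 0 in all 7 libraries and were not tested.

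Vessel genes gave no shared direction. Eng was the only called member of 26 angiogenesis genes (14 higher, median 0.03) and of 25 endothelial markers (15 higher, median 0.04). Over all genes tested 0.155% were called higher. Kdr, the main receptor of VEGF, was at 47.4, 51 and 50.8 CPM in the NBC males and at 47.6 to 54.2 CPM in the mPIA males, with overlapping groups (log2 change 0.04, SE 0.09). Pericyte and smooth muscle markers had 0 of 19 called, 12 of them lower (median -0.07, and 0.13 with NBC male 2 as the sole control).

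Immediate early genes, which neurons transcribe first after activity, were higher in 24 of 28 members, with a median log2 change of 0.32 against 0.01 over all genes. Of the 28, 1 passed, Nr4a1 (0.155% of all genes tested rose), and 3 had every mPIA library above every NBC library (5.18% of all genes tested). Egr1, a zinc finger factor of this class, was at 154, 101 and 111 CPM in the NBC males and at 146, 204, 174 and 184 CPM in the mPIA males. NBC male 2 lay above mPIA male 1, and the log2 change of 0.54 (SE 0.14) did not pass (adjusted p = 0.077). The 28 genes summed to 1557, 1268 and 1195 CPM in the NBC males and to 1432 to 1644 CPM in the mPIA males, so that NBC male 2 lay within the mPIA range. The median was 0.21 without NBC male 4 and 0.03 with NBC male 2 as the sole control. Ttr was high, at 2464 and 4378 CPM, in the controls with the low sums. With the choroid plexus level as a covariate the list median was 0.18. The part of choroid plexus RNA in the result was not tested. Clock genes were higher in 15 of 19 members (median 0.19). Bhlhe40, which is also a hypoxia target, was the called member (0.155% of all genes tested rose). Cry2, a repressor of the clock, had a log2 change of 0.23 (adjusted p = 0.0585). The clock median was 0.08 without NBC male 3 and 0.11 with NBC male 2 as the sole control. The time of day of dissection is not given in the labels. Glucocorticoid response genes were higher in 14 of 21 (median 0.11, 0 called). Their median was 0.04 without NBC male 4 and -0.02 with NBC male 2 as the sole control.

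The neuronal lists had medians between -0.13 and 0.15, against 0.01 over all genes tested, and no member passed. Excitatory hippocampal markers were higher in 19 of 23 (median 0.10), synaptic genes in 22 of 31 (median 0.09), deep cortical and subicular markers in 14 of 19 (median 0.15), and neurotrophins and their receptors in 7 of 13 (median 0.05). The first 2 of these medians turned to -0.05 and -0.04 with NBC male 2 as the sole control. Bdnf was at 62.1, 63.7 and 44.2 CPM in the NBC males and at 58.9 to 71.2 CPM in the mPIA males (log2 change 0.15, adjusted p = 0.551). NBC male 4 was the low library. Interneuron markers (19 tested, median -0.04) and dendrite and axon growth genes (31 tested, median -0.04) likewise had 0 called members. The striatal list (12 tested, median 0.01) and the list of thalamus and habenula (14 tested, median -0.13) also had 0 called members. The median of deep cortical markers was 0.03 without NBC male 2 and 0.36 with NBC male 2 as the sole control. The median of thalamus and habenula turned to 0.08 with NBC male 2 as the sole control.

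Proliferation and glial lists had negative medians, with 0 members called. Of 30 genes of neurogenesis and cell division 23 were lower, with a median of -0.25 that was -0.30 with NBC male 2 as the sole control, and 0 passed. Top2a, the topoisomerase of dividing cells, had a log2 change of -0.60 (adjusted p = 0.159). Microglial markers were lower in 21 of 25 (median -0.11), reactive astrocyte genes in 16 of 25 (median -0.32), complement in 13 of 16 (median -0.28) and myelin genes in 25 of 26 (median -0.15), each with 0 called. Without NBC male 4, the library with the highest myelin sum (7868 CPM against 5360.1 and 4961 CPM in the other NBC males), the myelin median was 0.05. The complement median was -0.04 with NBC male 2 as the sole control. Oligodendrocyte precursors (13 tested, median -0.08), astrocyte identity (18 tested, median -0.08), cytokines and NF-kB (22 tested, median -0.02), interferon and MHC class I (20 tested, median -0.13) and the unfolded protein response (20 tested, median -0.06) had 0 called. The median of interferon and MHC class I turned to 0.03 without NBC male 4, to 0.11 with NBC male 2 as the sole control and to 0.12 with the covariate. Those of oligodendrocyte precursors and astrocyte identity turned to 0.01 with the covariate and to 0.02 with NBC male 2 as the sole control.

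Cholesterol synthesis, which supplies growing membranes and myelin, was lower in 17 of 23 genes with a median of -0.12. Cyp51 encodes the sterol 14-alpha demethylase, a haem enzyme of this pathway (chromosome 5, 4081145 to 4104746, minus strand). It was at 134, 125 and 129 CPM in the NBC males and at 99.1, 97.8, 108 and 113 CPM in the mPIA males. The groups were separate, and the NBC males were alike. With the choroid plexus level as a covariate the log2 change was -0.31, and the part of choroid plexus RNA in this fall was not tested. Cyp51 fell by 0.31 on the log2 scale (SE 0.07, adjusted p = 0.0419), and its change lay between -0.36 and -0.26 over 19 alternative fits, of which 5 called it. Hmgcs1, an early enzyme of the pathway, was at 683 to 754 CPM in the NBC males and at 483 to 677 CPM in the mPIA males. Its log2 change of -0.30 (SE 0.1) did not pass (adjusted p = 0.12). Of the 23 genes, 1 was called lower, Cyp51 (0.498% of all genes tested), and 4 had every mPIA library below every NBC library (4.61% of all genes tested). Its median was -0.19 with NBC male 2 as the sole control.

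Motile cilia genes made up the largest named group among the falls, with 7 of 30 tested called lower (0.498% of all genes tested) and 28 of 30 lower in sign. Foxj1, the transcription factor that turns on the motile cilia program (chromosome 11, 116330704 to 116335399, minus strand), was at 8.44, 11.49 and 18.2 CPM in the NBC males. In the mPIA males it was at 4.11, 5.87, 7.65 and 5.01 CPM. The groups were separate, and NBC male 4 was the highest library. Foxj1 fell by a log2 change of 1.16 (SE 0.26, adjusted p = 0.0391). With NBC male 2 as the sole control the change was -0.57, and it did not pass.

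Drc7, a subunit of the complex that regulates ciliary dynein (chromosome 8, 95055103 to 95078141, plus strand), was at 1.92, 4.82 and 14.6 CPM in the NBC males and at 0.411, 0.555, 1.13 and 0.804 CPM in the mPIA males. All controls lay above all mPIA males, although the controls themselves spread widely. Its log2 change was -3.26 (SE 0.55, adjusted p = 0.0143), -2.22 without NBC male 4 and -1.38 with NBC male 2 as the sole control, where neither fit passed. Dnah11, a heavy chain of the outer dynein arm, was at 1.13, 2.52 and 8.58 CPM in the NBC males and at 0.411 to 0.757 CPM in the mPIA males. It fell by 2.69 (SE 0.51, adjusted p = 0.0168). Mlf1, Ak7 and Dnali1 (an axonemal dynein light intermediate chain) fell by 2.11, 1.75 and 2.10, with adjusted p of 0.018 to 0.0253. Rsph1, a radial spoke protein, fell from a mean of 6.79 to 2.06 CPM (adjusted p = 0.0387). Its NBC values were 3.45, 3.504 and 13.4 CPM, so that NBC male 4 carried the mean. Without NBC male 4 the log2 changes of Rsph1 and Dnah11 were -0.76 and -1.57, and 0 of the 7 genes passed. Mlf1 and Ak7 were below 2.14 CPM in every mPIA male. The median of the cilia list was -0.89, -0.69 without NBC male 4 and -0.58 with NBC male 2 as the sole control. With the choroid plexus covariate it was -0.35, and 0 members were called. The part of tissue carried over from the ventricle in these falls was not tested. Spag6, a protein of the central pair of the axoneme, fell by 0.69 (SE 0.15, adjusted p = 0.023). Its close copy Spag6l, at a mean of 0.121 CPM in NBC and 0.707 CPM in mPIA males, had a log2 change of 2.37 (adjusted p = 0.0754), and counts of these 2 genes are uncertain because reads may have been divided between them.

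Choroid plexus epithelium was lower in 24 of 24 members tested with a median of -3.67, and 2 passed, F5 and Abca4. Over all genes tested 0.498% were called lower. F5, which encodes coagulation factor V, was at 1.33, 17.8 and 29.7 CPM in the NBC males and at 1.44, 0.878, 1.55 and 1.04 CPM in the mPIA males. NBC male 2 lay inside the mPIA range, and the log2 change of -3.72 (SE 0.82, adjusted p = 0.047) rested on the other 2 controls. With NBC male 2 as the sole control it was -0.12. Abca4, a lipid transporter, was at 1.09, 9.04 and 15.9 CPM in the NBC males and at 0.832 to 1.34 CPM in the mPIA males. Its log2 change of -2.91 (SE 0.62, adjusted p = 0.0377) turned to 0.08 with NBC male 2 as the sole control. The list median was then 0.08.

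Markers of meninges and fibroblasts had 22 of 23 members lower and 0 called. Their median was -0.93 with all libraries, and it was -0.07 with NBC male 2 as the sole control. Col1a1, a fibrillar collagen, was at 19.7, 41.9 and 28.2 CPM in the NBC males and at 23.6, 8.09, 22.6 and 18.7 CPM in the mPIA males, with overlapping groups (log2 change -0.72, adjusted p = 0.418). Among the largest falls outside the lists, Aebp1, a matrix protein, was at 6.37, 27.5 and 31.6 CPM in the NBC males and at 8.07, 3.28, 5.18 and 3.83 CPM in the mPIA males. NBC male 2 lay below mPIA male 1, and Aebp1 fell by 2.10 (SE 0.47, adjusted p = 0.0494). Angptl2, a secreted angiopoietin-like protein, and Slc2a12, a glucose transporter, fell by 2.03 and 1.87 (adjusted p = 0.018 and 0.0342). The change of Slc2a12 was 0.07 with NBC male 2 as the sole control. Lrrc23, Mycbpap, Ttc21a and Zfp185 fell by 1.87 to 2.11. Of 7 markers of blood leukocytes and platelets tested 6 were lower (median -0.80). The median was -0.20 without NBC male 3, whose list sum was 31.7 CPM against 16.2 and 15.9 CPM in the other NBC males. In this list Pf4, a chemokine of platelets, passed with a log2 change of -2.19 (adjusted p = 0.0472) at levels of no more than 1.26 CPM. Over all genes tested 0.498% were called lower. The erythroid list had 5 genes tested, 4 of them higher (median 0.05, 0 called).

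**Figure D4:**
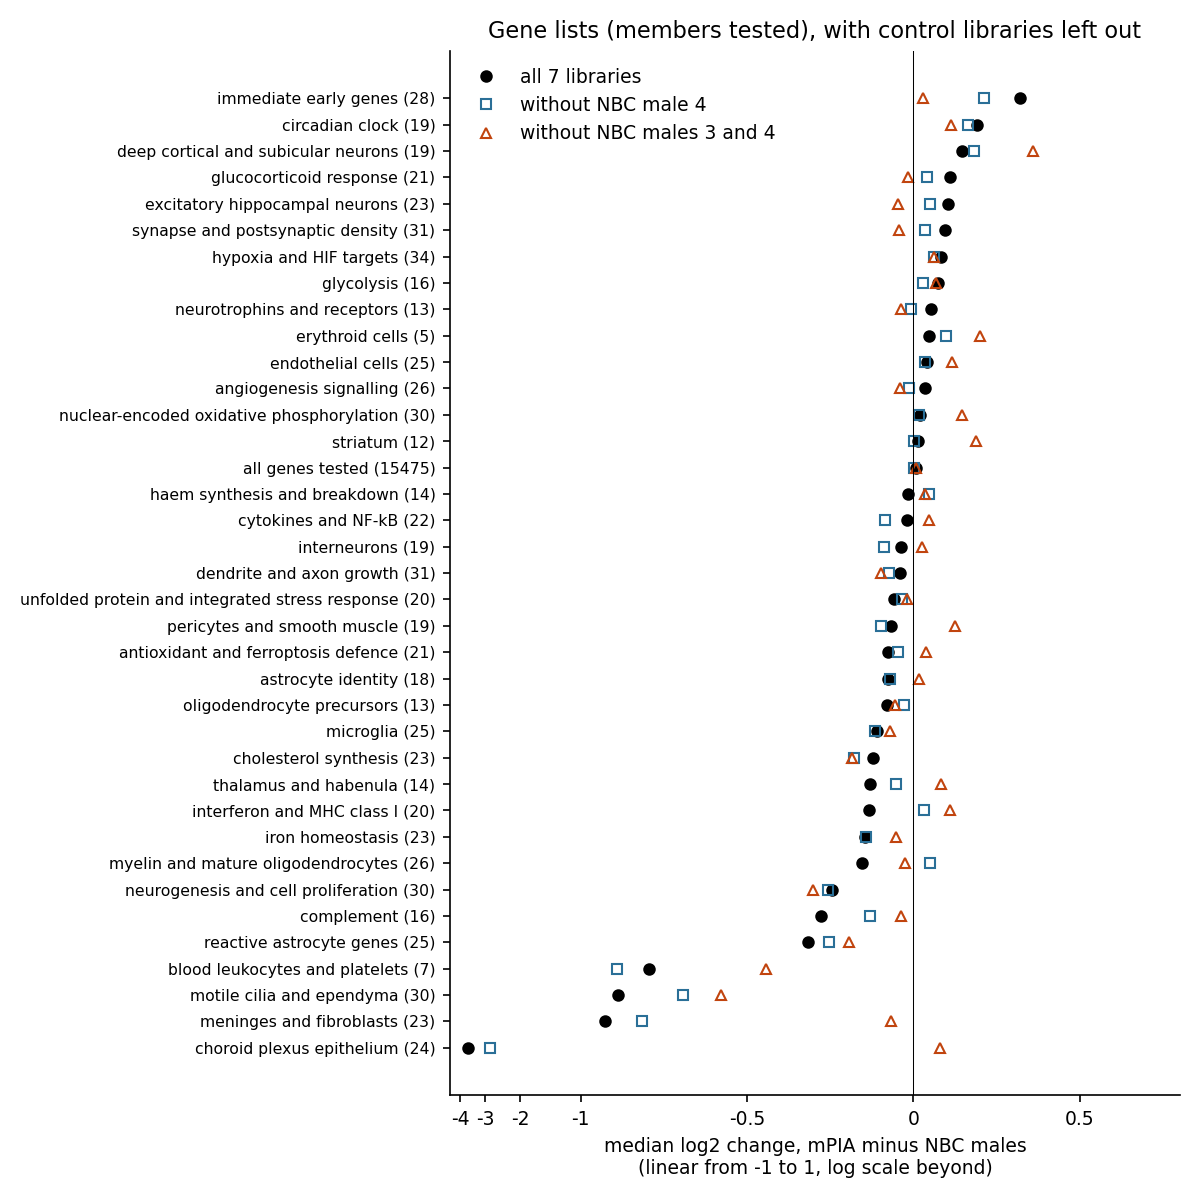
Median log2 change of each gene list in mPIA against NBC males (horizontal axis, linear between -1 and 1 and logarithmic beyond), with all 7 libraries (black), without NBC male 4 (blue squares) and with NBC males 3 and 4 left out (orange triangles); numbers in parentheses are members tested. The choroid plexus and meningeal medians move close to 0 when both libraries are left out, while those of cilia, proliferation and cholesterol synthesis stay below 0.

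The full set of calls was also set against single changes to the controls. When NBC males 3 and 4 were both left out, which leaves NBC male 2 and assumes that it varies like the other groups, 0 genes passed (838 at an unadjusted p under 0.05). The median change of the 24 genes that rose was then 0.35, and that of the 77 that fell -0.57. The sign of all 24 and of 59 of the 77 was already set by NBC male 2, which lay outside the mPIA range on the same side, and is no separate evidence. With the summed choroid plexus level of each library as a covariate 0 genes passed (825 at an unadjusted p under 0.05), and these medians were 0.44 and -0.78.

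Whether females responded alike was tested as a difference between effects, which uses the male libraries again. Only the female change by itself rests on libraries that share none with the male comparison. The difference between the male and the female effect of mPIA passed for 0 of 15475 genes (0% called; 1103 at an unadjusted p under 0.05, and 0 by DESeq2 and by limma-voom). Without NBC male 2 it passed for 69 genes. Of the 24 genes that rose in males 18 had a positive change in females, with a median of 0.04. Of the 77 that fell 53 had a negative one, with a median of -0.09. Over all 15475 genes tested, 7186 had a positive and 8287 a negative change in females. For Bhlhe40 the female change was 0.17 (SE 0.08). The difference between the sexes was 0.36 (SE 0.12, unadjusted p = 0.00593, adjusted p = 0.659) and did not pass. Bhlhe40 was called on its male change, which is part of this difference, so the unadjusted p is no separate evidence. Eng changed by 0.32 (SE 0.1) in females and Adm by 1.40 (SE 0.24), the latter past the threshold (adjusted p = 0.0365). The differences for Eng (0.14, SE 0.15) and Adm (-0.71, SE 0.33) did not pass, with adjusted p of 0.884 and 0.688. Cyp51 had a female change of 0.11 (SE 0.07), opposite in sign to that in males, with a difference of -0.42 (SE 0.1, unadjusted p = 0.000204, adjusted p = 0.633).

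**Figure D5:**
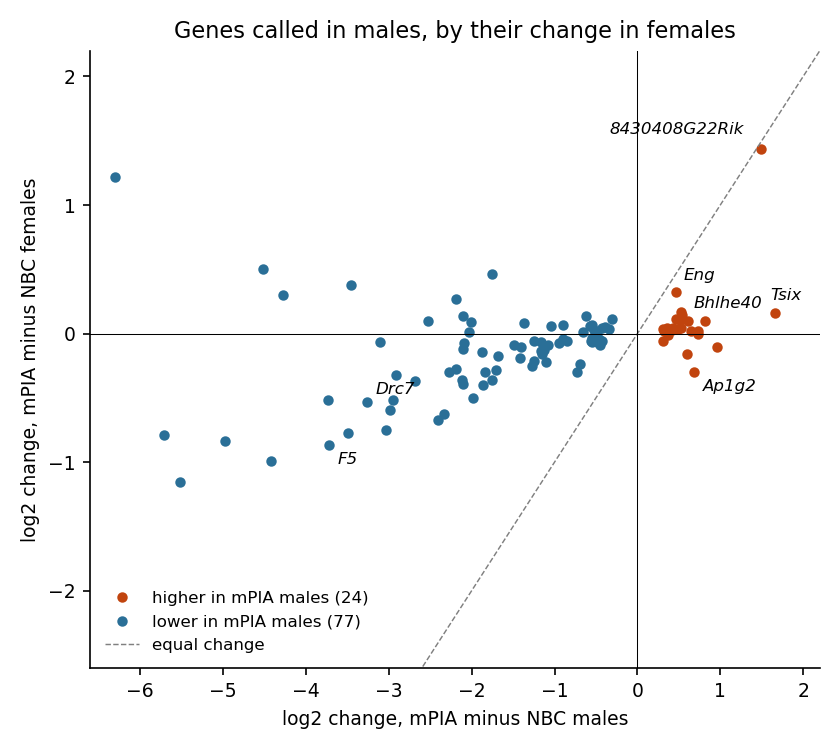
Log2 change in mPIA against NBC females (vertical axis) of the 101 genes called in males, by their change in males (horizontal axis); each point is 1 gene and the dashed line marks equal change. Most genes lie near 0 on the female axis (medians 0.04 and -0.09), and 8430408G22Rik lies on the line.

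The other groups were placed between the 2 male groups by their mean log2 CPM, as a description, since the genes had been called on the male comparison. Among the 24 genes that rose, the NBC female mean was nearer to the mPIA males than to the NBC males in 18, and the mPIA female mean in 21. The sPIA male mean was nearer to the mPIA males in 7 of the 24 and the sPIA female mean in 8. For the 77 genes that fell these numbers were 56, 65, 37 and 30. Both sPIA groups share the letter P with the NBC males, but the end numbers of their codes lie apart. The part of the code series in these calls was not tested. Car7 is an example, with 12.4 ± 2.96 CPM (SD, n = 3) in NBC males and 13.17 ± 1.46 CPM (SD, n = 4) in sPIA males. It was at 20.5 ± 0.859 CPM in mPIA males, 18.6 CPM in NBC females and 18.5 CPM in mPIA females (n = 4 each).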

How the data were processed

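Read counts of polyadenylated hippocampal RNA were analysed. The authors deposited raw counts, whole numbers of reads per gene with no scaling, as the column totals show. The submitters' processing notes name FastQC, TopHat2 version 2.0.13, Subread and edgeR with build mm10, without saying what each did. Neither the gene annotation nor the handling of strand and of multiply placed reads is stated there. Each column was matched to its sample by name (0 left over). Of 24421 rows, 95.6% have a symbol in GENCODE M21, the source of positions, GC content and length. Another 27 bear dates for names and are not named here.

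Differential expression was tested by edgeR's robust quasi-likelihood fit with TMM scaling, using 6 group means over all 23 libraries, so that all groups share an estimate of spread. Genes passed filterByExpr (minimum count 10, minimum total 15), and p-values were adjusted by Benjamini-Hochberg over all genes tested, with 0.05 as the threshold. CPM of single genes in the results are TMM-scaled, while sums over lists and the values of defining markers are not. The 36 gene lists are described by counts and medians. The comparison, the lists and the rule for named genes were chosen with earlier results of these data known. Among called genes that are not gene models or pseudogenes and whose average log2 CPM is 1 or more, the rule took the 12 largest rises, the 12 largest falls and up to 4 members of each list. It also took, called or not, Adm, Vegfa, Slc2a1, Tfrc, Bdnf, Bhlhe40, Nr4a1, Eng, Kdr, Ttr, Foxj1 and Col1a1. Every other gene with a value was named after its values were seen.

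Totals of 19.1 to 26.4 mega-counts leave values of a few CPM imprecise by counting alone. Pairs of libraries within either male group differed beyond sampling noise (chi-square over degrees of freedom, 6.02 to 30.1), so none was a duplicate. Alternatives were other scalings, filters and tests, a GC and length offset, a replicate block, a choroid plexus covariate and left-out libraries. Software was edgeR 4.0.16, DESeq2 1.42.0 and limma 3.58.1 under R 4.3.3, with figures by matplotlib 3.10.9 under Python 3.11.15.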

Additional observations from a re-analysis of the deposited data

Results flagged for a closer look

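In 2 of 73 values examined over the 4 mPIA males a single library stood apart from the others. About 1 group in 20 does so by chance. The summed level of the astrocyte identity list was 10800 CPM in mPIA male 1 and 9210 to 9430 CPM in the other mPIA males. The summed level of cytokines and NF-kB was 1100 CPM in mPIA male 1 and 1070 to 1080 CPM in the others.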

How the results depend on the processing

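The 101 calls in males became 381 with DESeq2, 24 with limma-voom, 0 with limma-voom and quality weights per group (added after seeing the data; 1561 at an unadjusted p under 0.05), 0 with the 7 libraries alone, 0 with the choroid plexus covariate and 0 without NBC males 3 and 4. Leaving out 1 library gave 0 to 1124. With DESeq2 size factors, no low-count filter, a stricter filter or a GC and length offset the counts were 100, 81, 74 and 118, sharing 96, 79, 74 and 85 genes with the 101. With the replicate number as a block 43 genes passed, and 38 with the block and the offset. The numbers did not pair the samples: deviations of NBC and mPIA males with the same number correlated at -0.0334, -0.0108 and -0.127. The count for the difference between the sexes was 0 to 69 when 1 library was left out, with calls only without NBC male 2, and 0 under the other alternatives. Signs turned for Abca4 (0.078), Slc2a12 (0.072), Slc2a1 (-0.25) and Ttr (3.65) without NBC males 3 and 4, and for Slc2a1 (-0.0090) and Ttr (1.74) with the covariate. When 1 library was left out, Bdnf ranged from -0.0057 to 0.24, Kdr from -0.0030 to 0.076 and Slc2a1 from -0.039 to 0.27. Of the values of named genes over the alternatives, 338 kept direction and side of the threshold, 334 lost a call, 3 gained one and 9 turned sign, as listed. The causes were not tested. With 3 controls, of which NBC male 4 lay farthest from the mPIA males in 67 of the 77 falls, the number of libraries limits precision, as does depth below a few CPM.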

Other observations

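The genes in this section were picked out after their values had been seen. 8430408G22Rik, which the RefSeq table names Depp1, a target of FOXO factors, measured 1.83, 1.54 and 1.26 CPM in NBC males 2, 3 and 4 and 5.71, 2.63, 4.97 and 4.07 CPM in mPIA males 1 to 4. The groups were separate. It rose by 1.49 on the log2 scale (SE 0.34, adjusted p = 0.036), and its change was 1.25 with NBC male 2 as the sole control, where it did not pass. In females, on separate libraries, the change was 1.44 (SE 0.31, adjusted p = 0.595), and the difference between the sexes was 0.05 (SE 0.45). In sPIA males the level was 2.12 ± 0.601 CPM (SD, n = 4).

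A cytokine receptor subunit and transporters of copper were among the genes that fell. Il6st, the signal subunit shared by receptors of the interleukin 6 family, measured 95.1, 114 and 102 CPM in the NBC males and 67.1 to 81.5 CPM in the mPIA males, with separate groups. It fell by 0.43 (SE 0.08, adjusted p = 0.0168), and its change was -0.30 with NBC male 2 as the sole control. Slc31a1, which imports copper, and Atp7a, the copper pump, fell by 0.55 each (adjusted p = 0.047 for both). With NBC male 2 as the sole control their changes were -0.06 and -0.10, close to 0. Choroid plexus RNA was high in the other 2 controls, and its part in these falls was not tested.

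Gapdh, an abundant glycolytic transcript in most tissues, was counted at 27.5, 20.8 and 99.2 CPM in the NBC males and at 20.6 to 23.4 CPM in the mPIA males (log2 change -1.16, adjusted p = 0.0993), with NBC male 4 alone high. Eno1 was counted at means of 2.01 and 2.68 CPM. Both have near-identical copies elsewhere in the genome, and their counts are uncertain.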
